A study of Homo sapiens with 6 samples.

Results

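The genes described here are the protein-coding genes of chromosome 17 whose annotated start lies between 20 and 40 Mb on the human genome build hg38. ERBB2 and the genes of ribosomal proteins and proteasome subunits whose symbols begin with RPL, RPS or PSM were left out, 7 genes in all. That leaves 144 of the 21494 genes in the table, and 132 of them passed the filter on low counts and were tested among 16756 genes. RNA-seq had been carried out on 6 samples of G361, described by the study as a human melanoma line, which carried either a control shRNA (Control sh, n = 3) or an shRNA against VprBP (VprBP sh, n = 3), the product of the gene DCAF1. Both groups were stable lentiviral lines kept after puromycin selection, and their labels give the genotypes as WT and DCAF1 Knockdown with no other treatment. The labels give G361 as the cell line but LD611 as the source, and nothing in them says that the 3 samples of a group came from separate cultures, so p-values measure only the spread between these samples.

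The interval was chosen from the fold changes of the same comparison that is described here, VprBP sh against Control sh. The levels, fold changes and counts of its members are therefore given as a description, with no test of the interval. All log2 fold changes are VprBP sh over Control sh, so that a negative value is a lower level in VprBP sh and 1 unit is a 2-fold difference. A gene was called when edgeR's quasi-likelihood test gave a Benjamini-Hochberg adjusted p-value under 0.05 over all genes tested and the fold change was over 2. In RNA from bulk samples, fewer cells of a type and less RNA per cell cannot be told apart.

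The interval runs from the proximal short arm, 17p11.2, across the centromere into the long arm, 17q11.2 to 17q21. Its long-arm part is known in human genetics for the tumour suppressor NF1, whose product neurofibromin switches off RAS, and for recurrent deletions around NF1. It also holds clusters of related genes, among them the CC chemokines, the Schlafen genes and the nearly identical TBC1D3 copies. A gene's neighbours on the chromosome need not share its function, and the members of this interval range from motor proteins to transcription factors.

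Facts of all 6 libraries bear on the values below. Total counts per sample ran from 18195949 to 26883948. DCAF1 itself (chr3:51395867-51500015) had 797, 971 and 838 normalized counts in Control sh against 760, 507 and 481 in VprBP sh, a log2 fold change of -0.58 (SE 0.17, adjusted p = 0.0125 by edgeR's quasi-likelihood test), which is under the fold needed for a call. Of 7 melanocyte markers, 4 were in the table, and their summed level ran from 199 to 236 normalized counts in Control sh, and from 244 to 308 in VprBP sh, with MLANA and TYRP1 at no more than 4.47 in any sample. Markers of epithelia differed between the groups. Of 11 urothelial markers, 9 were in the table with sums from 104358 to 113953 in Control sh, but from 25947 to 29196 in VprBP sh, where UPK1B was at 0 in all 3 samples. KRT5 and KRT7 made up most of these sums, and of the 8 tested urothelial markers 4 were called down and 2 up, GATA3 (9.02) and PPARG (1.39). Of 9 mammary luminal markers, 8 were in the table with sums from 57531 to 64389 in Control sh, but from 106045 to 137424 in VprBP sh, and SCGB2A2 was at 0 in all 3 Control sh samples. KRT8, KRT18 and KRT19 made up most of these sums. Of the 7 tested mammary luminal markers 6 were above 0, while ESR1 was below it at -0.61 (SE 0.16) and not called. The part of these differences in the values of chromosome 17 was not tested. Replicates 2 and 3 of each group lay closest together: over the members, the chi-square of their counts per degree of freedom was 2.57 in Control sh and 1.63 in VprBP sh, and 15.1 to 20.5 for the pairs with replicate 1.

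The promoters of 4 members are shown from the stretch in which the members were low together. They are those of NF1, at the centre of the microdeletion interval, SUPT6H, whose fold change lies between the median and the upper quartile of that stretch, and CORO6 and ALDOC, which were nearly undetected in VprBP sh. Each sequence is the RefSeq promoter of build GRCh38.p14, 250 bases before to 50 bases after the annotated start, read 5′ to 3′ on the strand of the gene. They lie at chr17:31094727-31095026 on the plus strand for NF1, chr17:28661955-28662254 on the plus strand for SUPT6H, chr17:29622863-29623162 on the minus strand for CORO6 and chr17:28576846-28577145 on the minus strand for ALDOC. Capitals mark the GC box GGGCGG on either strand, which reads CCGCCC on the opposite one.
NF1 promoter: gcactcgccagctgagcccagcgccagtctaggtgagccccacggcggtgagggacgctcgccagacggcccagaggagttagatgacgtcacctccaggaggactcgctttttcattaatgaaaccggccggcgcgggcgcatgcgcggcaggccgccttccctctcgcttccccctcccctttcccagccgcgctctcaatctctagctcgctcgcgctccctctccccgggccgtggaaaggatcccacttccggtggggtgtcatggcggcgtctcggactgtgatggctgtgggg
SUPT6H promoter: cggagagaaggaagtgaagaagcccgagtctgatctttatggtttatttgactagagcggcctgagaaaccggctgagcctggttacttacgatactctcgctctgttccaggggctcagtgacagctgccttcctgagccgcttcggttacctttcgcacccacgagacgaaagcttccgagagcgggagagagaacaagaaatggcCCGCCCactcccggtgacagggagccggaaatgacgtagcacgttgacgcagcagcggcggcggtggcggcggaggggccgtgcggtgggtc
CORO6 promoter: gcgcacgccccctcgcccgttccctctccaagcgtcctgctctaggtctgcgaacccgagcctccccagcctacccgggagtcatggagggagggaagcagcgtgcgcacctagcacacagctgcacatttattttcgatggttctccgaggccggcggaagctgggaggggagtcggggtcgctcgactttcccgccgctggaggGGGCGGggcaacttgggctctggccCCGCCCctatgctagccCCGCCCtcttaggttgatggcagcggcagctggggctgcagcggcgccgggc
ALDOC promoter: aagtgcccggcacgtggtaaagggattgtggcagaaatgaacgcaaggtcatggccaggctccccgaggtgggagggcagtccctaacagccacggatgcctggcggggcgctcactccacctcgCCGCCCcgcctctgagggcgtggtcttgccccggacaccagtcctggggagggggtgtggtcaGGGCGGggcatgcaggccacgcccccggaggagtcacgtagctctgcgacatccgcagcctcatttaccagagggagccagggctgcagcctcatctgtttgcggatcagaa

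NF1 has no GC box in this window, SUPT6H 1, ALDOC 2 and CORO6 3, and none of the 4 holds TATAAA on either strand. Their GC content was 67.0%, 60.0%, 66.0% and 69.0% in that order of naming, with 29, 26, 19 and 26 CpG dinucleotides. Of the 63 members that start between 28 and 34 Mb, 53 had a promoter in the table. GGGCGG was in 37 of these (69.8%), beside 45.0% of all 35116 promoters of the same length, and TATAAA was in 1 (1.89%), beside 11.5%. The median GC content of the 53 promoters was 67.3%, beside 58.7% for all promoters. The table holds promoters of non-coding genes too, and the other members were similar: of these 81, 58 had a promoter, 63.8% of them with GGGCGG and 1.72% with TATAAA, though with too few entries for a full check. TMEM98, MMP28, LHX1 and STAC2, which are among the members with the largest fold changes, had no entry.

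Across the interval 73 of the 132 tested members were called down in VprBP sh, 12 were called up and 47 were not called. Among all genes tested 22.0% were called down, 24.5% up and 46.4% in either direction, and since the interval was chosen on this contrast nothing is read from the difference. The median log2 fold change of the members was -1.18, with quartiles of -1.96 and -0.17, and the median of all genes was 0.08. The 3 samples of VprBP sh gave medians of -1.22, -1.19 and -1.21 against the Control sh mean, and those of Control sh gave -0.02, 0.00 and 0.00. The normalized counts of the groups did not overlap for 117 members (88.6%), as for 79.5% of all genes. The remaining 12 members were too low to be tested: VTN, EFCAB5, EVI2B, GAS2L2, C17orf50, CCL5, TBC1D3I, TBC1D3G, TBC1D3D, GPR179, NEUROD2 and TCAP.

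The low levels were not spread evenly. In fixed windows of 2 Mb, the median was -0.46 from 20 to 22 Mb (8 tested members) and -0.56 from 26 to 28 Mb (4), with no member in between. It was -1.62 from 28 to 30 Mb (38), -1.56 from 30 to 32 Mb (14) and -1.80 from 32 to 34 Mb (8). It then returned to -0.38 from 34 to 36 Mb (18), -0.33 from 36 to 38 Mb (15) and -0.48 from 38 to 40 Mb (27). These 3 adjoining windows thus held the members with medians under -1, and all the windows beside them were above it. Outside the interval the median was -0.06 over the 241 tested protein-coding genes of chromosome 17 before 20 Mb and -0.30 over the 459 after 40 Mb. A median under -1 was also found there, in the window from 60 to 62 Mb, at -1.20 over 10 tested genes.

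**Figure D1:**
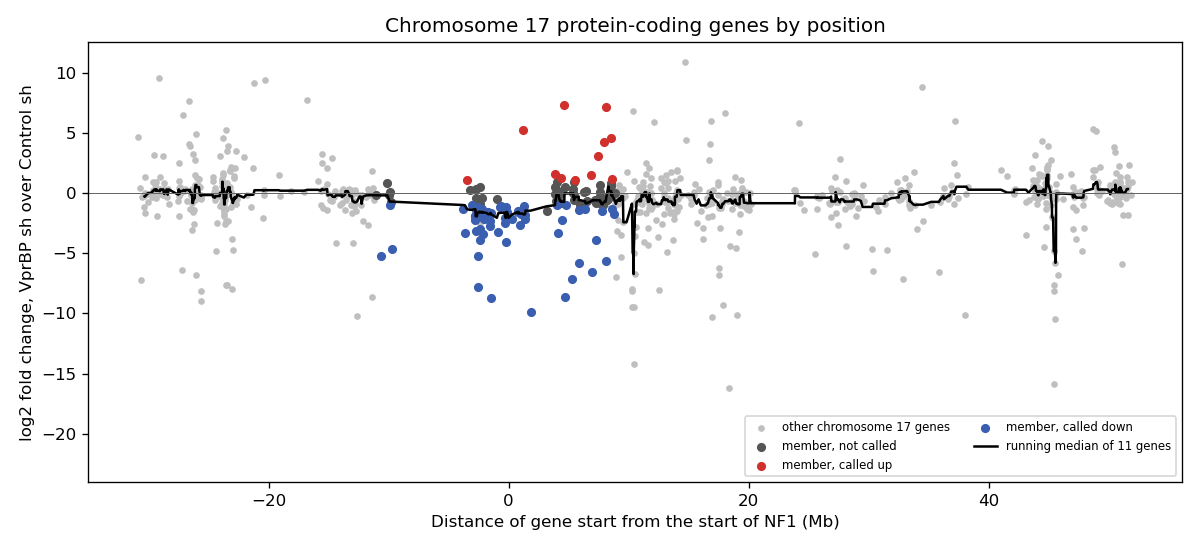
Log2 fold change (VprBP sh over Control sh) of each tested protein-coding gene of chromosome 17 against the distance of its start from the start of NF1 in Mb. Coloured points are the 132 tested members (red called up, blue called down, dark grey not called), pale points the other genes, with the 7 left out, and the line is the median of 11 consecutive genes, which stays below -1 over most of the stretch from -3.05 to 1.83 Mb around NF1 and also dips at places beyond the members.

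Between NLK (chr17:28041737-28196381), a serine/threonine kinase, and TMEM98 (chr17:32927910-32945106), a membrane protein, the table lists 63 members over 4.9 Mb, and 60 were tested. Of these 53 were called down, 1 up and 6 were not called, and 57 had a log2 fold change below 0. The median was -1.63, with quartiles of -2.20 and -1.39: 41 members lay between -2.5 and -1, 12 lay at -2.5 or lower and 7 above -1. In 59 of the 60 no Control sh sample overlapped a VprBP sh sample. The background shares are those given above, 22.0% called down and 79.5% not overlapping, and the stretch was picked out after its values were seen.

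The sum of the 63 genes on the CPM scale, on which counts are taken relative to the total of their library, was 8411, 8828 and 8761 CPM in Control sh and 3015, 3011 and 2988 in VprBP sh. All 3 VprBP sh samples lay close together and 2.88-fold below the Control sh mean. The other 81 members summed to 4791, 4711 and 4673 CPM in Control sh and 2895, 3094 and 3067 in VprBP sh, 1.57-fold lower. The median log2 ratio to the Control sh mean over the 60 tested genes was -1.70, -1.66 and -1.65 in the VprBP sh samples and -0.05, 0.03 and 0.02 in the Control sh samples. From 34 to 40 Mb the same median was -0.33, -0.43 and -0.45 in VprBP sh.

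**Figure D2:**
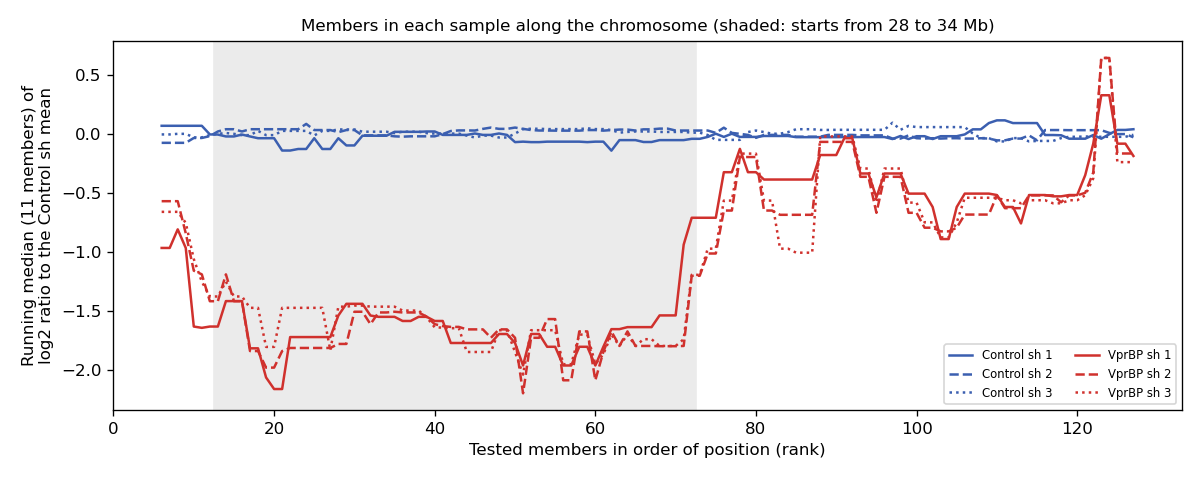
Median over 11 consecutive tested members of the log2 ratio to the Control sh mean, in each sample, against the rank of the members by position. The shaded ranks are the 60 members that start from 28 to 34 Mb, where the 3 VprBP sh lines run together well below the 3 Control sh lines, which stay near 0.

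Within the stretch the medians were alike on both strands and at high and low abundance. Its 29 tested members on the plus strand had a median of -1.62 and its 31 on the minus strand one of -1.64. The 29 that overlap another protein-coding gene had a median of -1.71 and the 31 that overlap none -1.58. The 40 with a Control sh mean of at least 1000 normalized counts had a median of -1.67 and the 20 below it -1.58. These medians all lay between -1.71 and -1.58. The stretch was picked after its low values were seen, so their distance from 0 was set by that choice and nothing is read from it.

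In Control sh the stretch was also expressed at a high level for the genome. Taken per kb of exon, its 60 tested members had a median of 321, 342 and 337 normalized counts per exonic kb in Control sh, where the median protein-coding gene had 105, 107 and 106. This put the median member at percentile 77.0, 78 and 77.8 of the protein-coding genes of its own sample. In VprBP sh the median was 107, 107 and 108 per exonic kb, beside 110, 108 and 108 for all protein-coding genes, at percentiles 49.4, 49.8 and 49.8. The median member of the stretch thus lay above the typical level in Control sh and at the typical level in VprBP sh. Since the stretch was picked for lower values in VprBP sh than in Control sh, these levels are not independent of that choice. Which group departs from the usual level of these genes was not tested. The members from 34 to 40 Mb were at percentiles 47.9 to 51.1 in Control sh, and at 44.3 to 46.9 in VprBP sh, and the genes before 20 Mb at 45.7 to 47.3 and 46.9 to 47.9. DNA copy number was not analysed here.

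**Figure D3:**
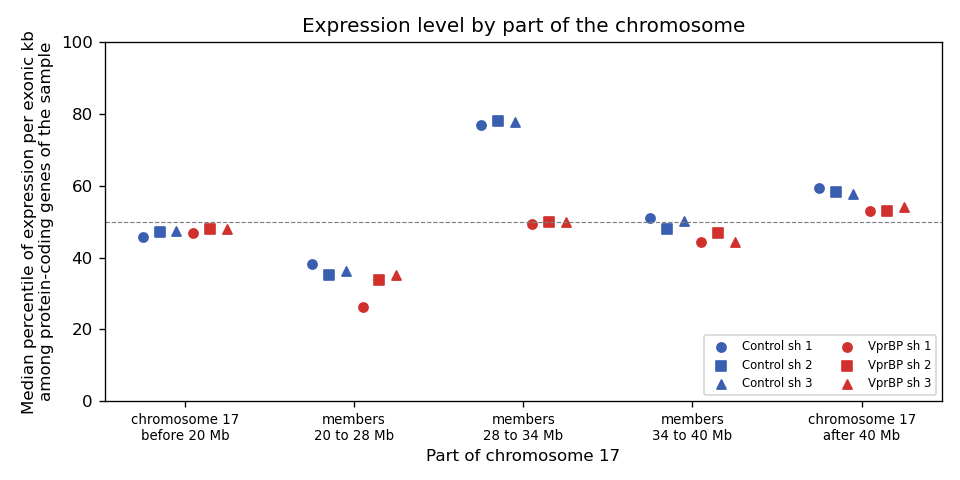
Median percentile of expression per exonic kb among the protein-coding genes of a sample (vertical axis, 0 to 100; dashed line at 50), for 5 parts of chromosome 17, with 1 point per sample. Members from 28 to 34 Mb sit at 77.0 to 78 in Control sh but at 49.4 to 49.8 in VprBP sh, the widest gap of the 5 parts.

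Long runs of genes below 0 were also found on other chromosomes. The 33 consecutive tested protein-coding genes from NEK8 to RHOT1 all had a log2 fold change below 0, the second longest such run after 59 genes on chromosome 8. From BLMH to RHOT1, 15 consecutive genes were below -1, as many as in the longest run elsewhere, on chromosome 13. Of 497 windows of 2 Mb with at least 10 tested protein-coding genes, 35 (7.04%) had a median below -1. These runs were read from the same contrast and count the genes that the rule leaves out.

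**Figure D4:**
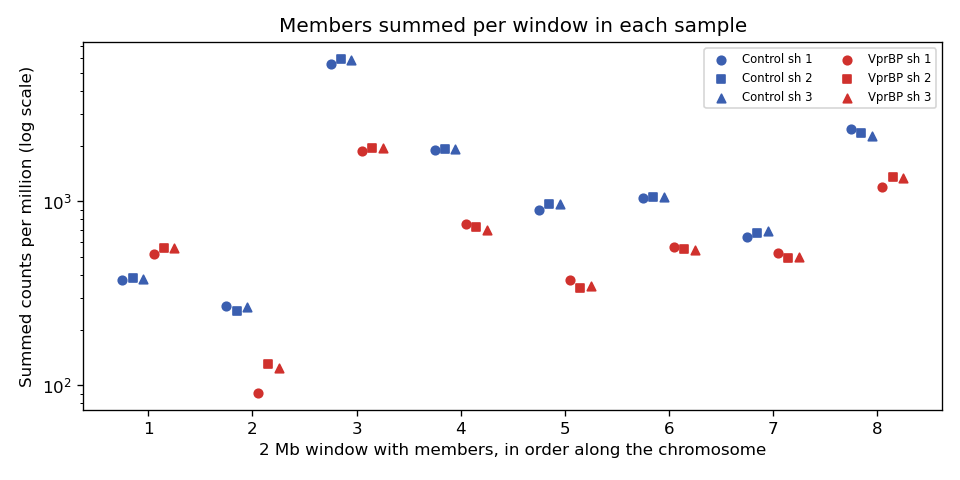
Summed CPM of the members in each of the 8 windows of 2 Mb that hold members (1 is 20 to 22 Mb, 2 is 26 to 28 Mb and 3 to 8 run from 28 to 40 Mb), per sample, on a log scale. In windows 2 to 8 every Control sh point lies above every VprBP sh point, while in window 1 the order is the opposite. The VprBP sh mean over the Control sh mean was 0.331, 0.379 and 0.373 in windows 3, 4 and 5. It was 0.437, 0.524, 0.758 and 0.550 in windows 2, 6, 7 and 8.

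The proximal edge was not sharp. Of the 2 members just before NLK, LGALS9, galectin-9, had 163, 121 and 134 normalized counts in Control sh against 121, 381 and 372 in VprBP sh, with replicate 1 of VprBP sh no higher than Control sh. It was called up at 1.07 (SE 0.37) but lost the call when any 1 library other than replicate 1 of VprBP sh was left out, with values from 0.84 to 1.20. LYRM9 was near 0, at 0.22 (SE 0.22). Beyond them, and chosen after their values were seen, WSB1, a SOCS-box protein, fell by 1.34 and KSR1, a scaffold of the RAF-MEK-ERK cascade, had 1256, 1326 and 1290 counts in Control sh against 114, 125 and 136 in VprBP sh. KSR1 was thus 10.3-fold lower (-3.36, SE 0.11) at 27.46 Mb. NLK itself, with 758, 742 and 783 counts in Control sh against 434, 341 and 365 in VprBP sh, was 2.01-fold lower, just past the fold for a call, and was not called without replicate 3 of Control sh (-0.99) or replicates 2 (-0.94) or 3 (-0.98) of VprBP sh.

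At the distal edge no member starts within 1.31 Mb after TMEM98. The first is CCL2, a monocyte chemoattractant, with 18.5, 19.6 and 17.1 normalized counts in Control sh against 16.7, 2.08 and 2.30 in VprBP sh, not called at -1.47 (SE 0.65) but called at -2.99 without replicate 1 of VprBP sh. It is followed, in genes picked after their values were seen up to LIG3, by CCT6B, a testis chaperonin subunit, which was called up at 1.57, by ZNF830 at 0.48 and by LIG3, DNA ligase III, at -0.11. The running median over 11 members passed from -1.71 at CDK5R1 to -1.11 at TMEM98 and -0.64 at LIG3.

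TMEM98 was the member with the largest decrease. It had 1638, 1643 and 1622 normalized counts in Control sh against 3.35, 1.04 and 0.767 in VprBP sh, where only 5 reads were counted over the 3 samples. The ratio of the counts was 1033-fold (95% exact interval 442 to 3184, counting error only) and the fitted log2 fold change -9.90 (SE 0.22), or -10.67 without replicate 1 of VprBP sh. CORO6, a coronin that binds actin filaments, had 5084, 5120 and 4873 counts in Control sh against 8.93, 8.31 and 16.1 in VprBP sh (-8.74, SE 0.17). ALDOC, the brain isoform of the glycolytic enzyme aldolase, had 3500, 4273 and 4327 counts in Control sh against 19.0, 20.8 and 16.1 in VprBP sh (-7.77, SE 0.16). In each of these genes the lowest Control sh sample lay far above the highest VprBP sh sample, and CORO6 and ALDOC are among the genes whose promoters are printed above.

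ADAP2, a GTPase-activating protein for ARF6, was also among the 10 largest decreases of members that averaged 100 normalized counts or more in Control sh, with 146, 120 and 96.7 counts in Control sh against 1.12, 8.31 and 9.97 in VprBP sh (-4.11, SE 0.43). RAB34, a small GTPase of the Golgi and cilium, had 8177, 8002 and 8056 counts in Control sh against 521, 550 and 528 in VprBP sh, 15.2-fold lower (-3.92, SE 0.08). RAB34, ALDOC, CORO6 and TMEM98 thus fell far more than their neighbours. RHBDL3, a rhomboid-like protein, was the 1 member of the stretch called up, with 0, 2.17 and 0 counts in Control sh against 32.4, 28.1 and 34.5 in VprBP sh, a ratio of 45.3 (95% interval 12.2 to 379) on 2 Control sh reads. It lies between RHOT1 and C17orf75, which were called down at -1.78 and -1.71, and it was chosen for mention after its values were seen.

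The 6 members of the stretch that were not called were TMEM199, SARM1, TLCD1, NEK8, DHRS13 and NSRP1. SARM1, the NAD-cleaving enzyme of axon degeneration, had 88.1, 141 and 119 counts in Control sh against 140, 147 and 151 in VprBP sh and was the only tested member of the stretch whose groups overlapped. TLCD1 was somewhat higher in VprBP sh, with 178, 220 and 262 counts after 159, 145 and 168 in Control sh (0.49, SE 0.17). NEK8, a kinase of the primary cilium, was lower at -0.91 (SE 0.20), short of the fold for a call, which it passed without replicate 2 of VprBP sh (-1.08). TMEM199 is followed by SARM1 and TLCD1 by NEK8, so some of these genes adjoin each other. IFT20, a carrier of ciliary cargo near TMEM199 but not next to it, fell further than TMEM199 (-0.39). It had 1091, 1150 and 1085 counts in Control sh against 315, 271 and 317 in VprBP sh (-1.88, SE 0.11).

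**Figure D5:**
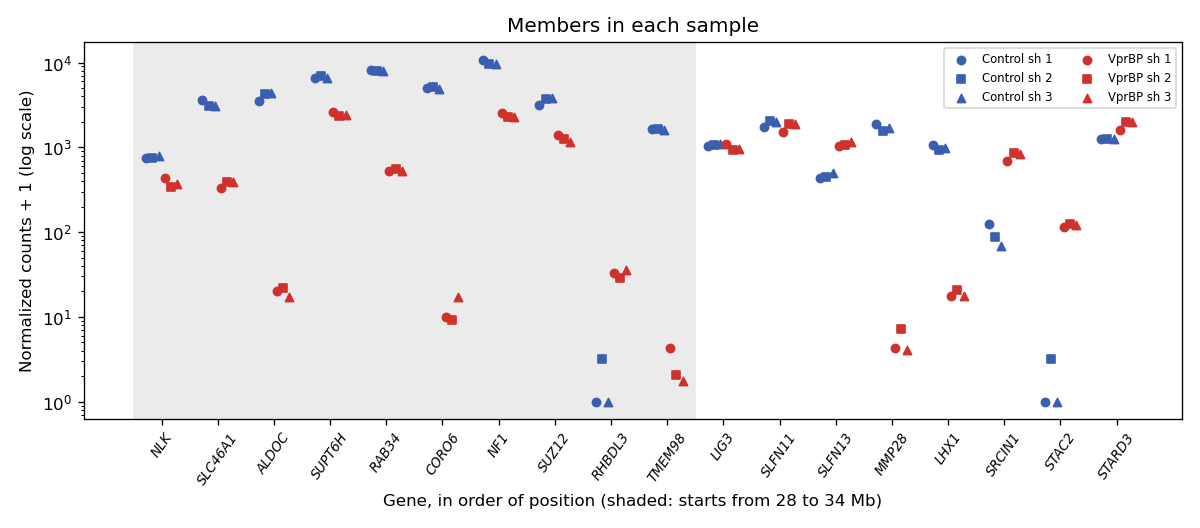
Normalized counts plus 1, on a log scale, of 18 members in each sample, in order of position (circles, squares and triangles are replicates 1, 2 and 3; shaded genes start from 28 to 34 Mb). All shaded genes but RHBDL3 are lower in VprBP sh, while the genes to the right go in both directions and LIG3 and SLFN11 overlap between groups.

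The genes of the NF1 microdeletion interval were lower throughout. Of 13 genes in that list 11 were in the table and 10 were tested, and all 10 were called down, with a median of -1.82, beside 22.0% called down and a median of 0.08 over all genes. They all lie in the stretch from 28 to 34 Mb, where 88.3% of the 60 tested members were called down, with a median of -1.63. The low values are thus not particular to this list. With library size alone as the scaling, TEFM was not called (-0.98). NF1 (chr17:31094927-31382116) had 10877, 9695 and 9590 normalized counts in Control sh against 2564, 2306 and 2251 in VprBP sh, 4.24-fold lower (-2.08, SE 0.09). SUZ12, a subunit of the PRC2 complex that methylates H3K27, had 3186, 3758 and 3852 counts in Control sh against 1381, 1254 and 1152 in VprBP sh (-1.51, SE 0.10). Both genes kept their groups well apart. ATAD5, which unloads the PCNA clamp from DNA, fell by 2.47, and CRLF3, a cytokine receptor-like protein, fell by 2.06. RAB11FIP4, an effector of RAB11 in endosome recycling, fell by 2.12, and UTP6, a ribosome biogenesis factor, fell by 1.58. The smallest fall was that of TEFM, a mitochondrial transcription elongation factor, at -1.19 (SE 0.18). EVI2B, a gene inside an intron of NF1 on the opposite strand, was too low to test, with 1.16, 6.52 and 8.53 counts in Control sh against 0 in each VprBP sh sample.

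Abundant genes of general cell function were part of the stretch. CPD, carboxypeptidase D of the trans-Golgi network, had 13962, 12792 and 12359 normalized counts in Control sh against 5852, 5981 and 5683 in VprBP sh (-1.16, SE 0.08). KIAA0100, a large conserved protein, had 11675, 13531 and 13092 in Control sh and 5539, 5501 and 5411 in VprBP sh (-1.22, SE 0.08). SUPT6H, a histone chaperone that travels with RNA polymerase II, had 6647, 6871 and 6653 in Control sh and 2590, 2370 and 2442 in VprBP sh (-1.45, SE 0.08). Each of these genes lay at a similar level in all samples of a group. Per exonic kb, FLOT2, a lipid raft scaffold, was the most abundant member in Control sh, with 2645 ± 58.3 normalized counts per exonic kb in Control sh and 860 ± 127 in VprBP sh (n = 3, ± SD), where USP22 was higher.

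The lists of members by function draw on genes from inside and outside the stretch. Of 10 actin and motor proteins 7 were called down and 1 up, beside 22.0% and 24.5% of all genes tested, with a median of -1.73. The falls from 28 to 34 Mb included MYO18A at -2.16, MYO1D at -1.81, SSH2, a cofilin phosphatase, at -1.64 and GIT1, a focal adhesion scaffold, at -2.36. Beyond 34 Mb in the same list, ARHGAP23 (-3.92) and LASP1 (-1.50) were called down and SRCIN1 (3.10) up. Of 11 membrane traffic genes 7 were called down and none up, beside the same shares, with a median of -1.49. In that list GOSR1, a Golgi SNARE, fell by 1.10 and UNC119, a carrier of lipidated proteins, fell by 1.49. Beyond 34 Mb, AP2B1 was called down at -2.23, while SYNRG (0.19), STARD3 (0.54) and ORMDL3 (-0.03) were not called.

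Of 14 tested transcription and chromatin regulators 6 were called down (42.9%) and none up, beside 22.0% and 24.5% of all genes tested, with a median of -0.37. The 6 were SUPT6H, PHF12, SUZ12, COPRS, ZNF207 and LHX1, and all but LHX1 lie from 28 to 34 Mb. MED1, a subunit of Mediator, had -0.48 (SE 0.09), CDK12, a kinase of RNA polymerase II, -0.26 (SE 0.09) and USP22, the SAGA deubiquitinase, 0.80 (SE 0.08), and none of these was called. Of 6 genes listed under DNA repair and replication 3 were called down, while LIG3 was not called at -0.11. The 3 were ATAD5, SPAG5, which is a mitotic spindle protein, and TEFM, the mitochondrial transcription factor named above, so the heading is a loose one. Of 10 genes of mitochondrial proteins 3 were called down, RHOT1 at -1.78, ERAL1 at -1.62 and TEFM, and none up. The share of the mitochondrial list called down is near the 22.0% of all genes, and that of the repair list rests on 6 genes. The members beyond 34 Mb in the mitochondrial list, LIG3 (-0.11), MYO19 (-0.04), MRPL45 (-0.61), CISD3 (-0.83) and MRM1 (-0.33), were not called.

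On the short arm, before the stretch, 9 of 11 listed genes of 17p11.2 were in the table and 3 were called down (33.3%). The share of all genes tested that was called down is 22.0%. One of the 9, AKAP10, starts before 20 Mb. KCNJ12, an inward rectifier potassium channel, had 78.8, 26.1 and 21.8 counts in Control sh against 2.23, 1.04 and 1.53 in VprBP sh, 25.6-fold lower (95% interval 10.7 to 80.4 on 5 VprBP sh reads, counting error only). Its fitted value of -4.62 became -3.82 without replicate 1 of Control sh, which was well above the others. LGALS9B, a galectin gene with close copies, had 15.1, 17.4 and 16.1 counts in Control sh against 0, 1.04 and 0 in VprBP sh, and its fitted value of -5.21 ran to -7.04 and -4.61 without replicates 2 and 3 of VprBP sh. NATD1 was barely past the fold at -1.02 (SE 0.28), with replicate 1 standing apart in both groups, and was not called without that replicate of Control sh (-0.73) or of VprBP sh (-0.80). USP22, by contrast, had 4148, 4713 and 4619 counts in Control sh against 7526, 7964 and 8023 in VprBP sh. The short-arm members thus showed no common level of change.

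Beyond 34 Mb, 10 of 60 tested members were called up, 15 down and 35 were not called, with a median of -0.41. The share called up, 16.7%, is under the 24.5% of all genes tested, and the share called down is near their 22.0%. Of the 5 Schlafen genes in the table, a family linked to antiviral defence, SLFN5 had 3561, 3392 and 3292 counts in Control sh against 290, 380 and 377 in VprBP sh (-3.29, SE 0.12). SLFN13 was higher, at 435, 447 and 492 counts in Control sh against 1025, 1062 and 1169 in VprBP sh (1.24, SE 0.10). SLFN11, which arrests stressed replication forks, overlapped between groups with 1724, 2061 and 1993 against 1537, 1868 and 1892 (-0.12, SE 0.11). SLFN12 (-0.73) and SLFN12L (-0.84) were not called, the latter being called at -1.12 without replicate 1 of VprBP sh. Of 16 CC chemokines in the list only CCL2 and CCL5 were in the table, both at low counts.

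MMP28, the metalloproteinase epilysin, had 1882, 1562 and 1695 counts in Control sh against 3.35, 6.23 and 3.07 in VprBP sh (-8.66, SE 0.20). AP2B1, a subunit of the clathrin adaptor AP-2, had 11930, 12240 and 12085 in Control sh and 2894, 2449 and 2397 in VprBP sh (-2.23, SE 0.09). Between these genes, and chosen after its values were seen, RASL10B, a RAS-like GTPase, had 0, 1.09 and 0 counts in Control sh against 42.4, 105 and 75.9 in VprBP sh, a ratio of 214 (95% interval 38.0 to 8469) on 1 Control sh read. Genes that lay next to each other thus moved in opposite directions, which was seen once among the called genes from 28 to 34 Mb, at RHBDL3.

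LHX1, a LIM-homeobox factor of kidney development, had 1076, 933 and 972 counts in Control sh against 16.7, 19.7 and 16.9 in VprBP sh (-5.80, SE 0.15). AATF, an apoptosis-antagonizing factor, fell by 1.44, and DUSP14, a phosphatase of MAP kinases, fell by 1.31. DHRS11, a short-chain dehydrogenase, had 231, 189 and 254 counts in Control sh against 470, 455 and 467 in VprBP sh (1.04, SE 0.13), and lost the call without replicate 2 of Control sh (0.93), with TMM factors (0.95) and with DESeq2 (0.92). ACACA, acetyl-CoA carboxylase of fatty acid synthesis, had 2375, 3180 and 3145 in Control sh and 1559, 1377 and 1424 in VprBP sh, just short of the fold for a call, which it passed without replicate 1 of Control sh (-1.13) or of VprBP sh (-1.05). ZNHIT3 (0.30), MYO19 (-0.04), TADA2A (0.12) and SYNRG (0.19) were near the median of all genes.

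The TBC1D3 genes are copies whose transcripts are at least 96.3% identical over the 15 pairs of the 6 copies in the table, so reads cannot be assigned to one copy with certainty. TBC1D3H had 152, 154 and 158 counts in Control sh against 0, 0 and 2.30 in VprBP sh, and TBC1D3C had 232, 177 and 163 against 0, 3.12 and 2.30. The fitted value of TBC1D3H, -7.18, was -10.19 without replicate 3 of VprBP sh, the only one with reads. TBC1D3L had 108, 107 and 114 in Control sh and 266, 337 and 304 in VprBP sh. Summed over the 6 copies, the level was 540, 464 and 440 normalized counts in Control sh against 274, 347 and 320 in VprBP sh, or a mean of 481 ± 52.3 and 314 ± 37.2 (n = 3, ± SD). The sum of the family differed less between the groups than TBC1D3H, TBC1D3C or TBC1D3L did, since TBC1D3L was higher in VprBP sh and the other 2 were lower. How far reads were exchanged between copies was not tested.

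Of the listed genes from MRPL45 to STAC2, 14 were tested, 3 were called up and 3 down (21.4% each), with a median of -0.57. LINC00672 lies in the same range but was not in the list, and it was not called (-0.96). These shares are near the 24.5% up and 22.0% down of all genes tested. STAC2, an adaptor of voltage-gated calcium channels, had 0, 2.17 and 0 counts in Control sh against 113, 125 and 120 in VprBP sh, a ratio of 170 (95% interval 46.6 to 1405) on 2 Control sh reads. Its fitted value of 7.17 was 9.92 and 6.58 without replicates 2 and 3 of Control sh. Next to it, CACNB1, the beta subunit of the muscle calcium channel, had 274, 229 and 236 counts in Control sh against 0, 7.27 and 6.13 in VprBP sh (-5.67, SE 0.41). SRCIN1, an inhibitor of the kinase SRC, had 123, 87.0 and 68.3 counts in Control sh against 694, 852 and 825 in VprBP sh (3.10, SE 0.20). Its neighbour ARHGAP23, a GTPase-activating protein, had 17389, 15795 and 14673 in Control sh and 703, 1224 and 1220 in VprBP sh, 15.2-fold lower (-3.92, SE 0.21). LASP1, an actin-binding LIM protein and the member with the highest mean, had 16979, 17495 and 16839 in Control sh and 5628, 6309 and 6260 in VprBP sh (-1.50, SE 0.08). PLXDC1, a plexin domain protein, was also called up (4.19, or 5.28 without replicate 2 of Control sh), and the other tested genes, such as MLLT6 (0.07), PCGF2 (-0.24) and PIP4K2B (-0.53), were not called.

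At the distal end, 11 genes around GRB7 and STARD3 were tested, 2 were called up and 2 down (18.2% each), and the median was -0.20. Among all genes tested 24.5% were called up and 22.0% down. GRB7, an adaptor of receptor tyrosine kinases, had 2562, 1851 and 1981 counts in Control sh against 606, 966 and 1009 in VprBP sh (-1.30, SE 0.19). GSDMB, a gasdermin, had 593, 463 and 477 in Control sh and 150, 157 and 162 in VprBP sh (-1.71, SE 0.14). PGAP3, which remodels GPI anchors, rose from 248, 280 and 273 counts to 538, 624 and 632 (1.16, SE 0.12). PNMT, the enzyme that makes adrenaline, had 1.16, 2.17 and 0 counts in Control sh against 32.4, 29.1 and 21.5 in VprBP sh (4.54, or 5.41 and 3.93 without replicates 2 and 3 of Control sh). STARD3, a cholesterol transporter of late endosomes, had 1262, 1272 and 1263 in Control sh and 1585, 1972 and 1972 in VprBP sh and was not called (0.54, SE 0.10).

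The bounds at 20 and 40 Mb do not follow a step in the values. Just inside them were SPECC1, a cytospin, at -0.18 and ORMDL3, a regulator of sphingolipid synthesis, at -0.03. Just outside were AKAP10, an anchor of protein kinase A, at -0.57, and CSF3, the cytokine G-CSF, at -6.99, followed by MED24, a Mediator subunit, at -0.56.

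Replicates of the members were about as close as those of other genes. Over the 103 members with at least 100 normalized counts in both groups, the median coefficient of variation was 6.71% in Control sh and 8.39% in VprBP sh, beside 7.47% and 8.72% over the 10393 such genes of the table. Of the members, 54 overlap another protein-coding gene, 13 on the same strand and 45 on the opposite strand. The labels and the study name different library kits, and whether the counting used strand is not given in the sources used here, so values of such pairs are uncertain where they share reads.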

How the data were processed

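RNA-seq was analysed for 3 Control sh and 3 VprBP sh samples, grouped by the titles in their labels. The authors aligned single-end reads to hg38 with STAR, quantified them in Partek Flow and deposited estimated counts per gene, 59.4% of them exactly whole numbers as written, before any normalization and per sample. The design had been written for counts, so the estimated counts were rounded before testing. Coordinates are those of the deposited table, with the last base counted as in GENCODE 44, which 137 of the 144 members match exactly. Total counts were 18195949 to 26883948 per sample, and 3 counts, the floor taken for a bound, are 2.30 to 3.48 normalized counts.

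All 6 samples entered 1 fit with edgeR 4.0.16 in R 4.3.3 (quasi-likelihood test, upper quartile factors, filterByExpr with a minimum of 10), without a replicate block, standing in for Partek's own test. At the thresholds that the study names, this fit called 7778 of 16756 genes, far more than the study reported. The reason for the difference was not tested. Normalized counts are counts divided by the scaled effective library size, and the SE is the log2 fold change over the square root of F. Intervals of count ratios are exact at 95%. Levels per exonic kb use the union of exons in GENCODE 44, and promoters are from RefSeq. Positions, runs and medians were computed with numpy 2.4.6 and pandas 2.3.3 in Python 3.11.15. The tests were tried on simulated data.

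The members, the gene lists and the marker lists were chosen with earlier results of these data known. Genes are named if they are DCAF1, among the 10 largest increases or decreases of called members whose higher group averaged 100 normalized counts or more (7 increases qualified), in a gene list, among the 5 most abundant members, or at the edge of a window step over 1. Other genes stand in a complete count or are said to have been picked once their values were known. The alternatives were TMM factors, library size alone, DESeq2 1.42.0, limma-voom (limma 3.58.1), other filters, a replicate block, leaving out each replicate, other window widths, and, added after the data were examined, replicates 2 and 3 summed. The authors' RT-qPCR and ChIP measurements were not analysed here. One of the gene lists is not reported here.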

Additional observations from a re-analysis of the deposited data

How the results depend on the processing

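The median log2 fold change of the members was -1.18 and became -1.28 with TMM factors, -0.97 with library size alone, -1.30 with DESeq2, -1.21 with no filter on low counts and -1.06 with at least 10 counts in every sample, and ran from -1.21 to -1.15 when 1 replicate was left out. The scaling moved all genes alike: their median was 0.08, -0.01, 0.29 and -0.04 under upper quartile, TMM, library size and DESeq2, and the members' median minus that of all genes was -1.27 each time. With at least 10 counts in every sample, 6 members were called up, since genes near 0 in 1 group are then not tested, and 58 of 112 were called down. With library size alone 64 were called down and 16 up. The named members that lost the call there were NATD1 (-0.80), NLK (-0.79), SPAG5 (-0.96), CPD (-0.95), GOSR1 (-0.89), TEFM (-0.98) and ZNF207 (-0.89). USP22 (1.01), RAD51D (1.16), PIGW (1.12) and PPP1R1B (1.04) gained it. DCAF1 was at -0.37 with library size alone and -0.46 with replicates 2 and 3 summed, with an adjusted p no longer under 0.05 in either case (it was never past the fold for a call), and the cause was not tested. The 2 Mb windows with a median below -1 covered 6 Mb, and windows of 5 Mb covered 10 Mb, since a wide window takes in genes beyond the stretch. Replicate numbers did not pair the samples (correlations of -0.173, -0.054 and -0.121 between same-numbered samples over 12133 genes), and with a replicate block 84 members were called, 73 down and 11 up, at a median of -1.17. Of 1331 alternative values of 96 named members, 1286 kept their side of the threshold, 28 lost the call and 17 gained it. No called value changed sign, and 20 values of 10 members changed sign while not called. LGALS9 lost its call most often. The 12 members too low to test, and those near 0 in 1 group, are limited by depth.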

Other observations

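Genes of other types in the same interval were read as well. The table lists 81 of them from 20 to 40 Mb, non-coding RNAs and pseudogenes among them, and 36 were tested. From 28 to 34 Mb, 15 were tested, 9 were called down and none up, with a median log2 fold change of -1.23, beside 22.0% called down and 24.5% up among all genes tested. From 34 to 40 Mb, 14 were tested, 4 were called down and 1 up, with a median of -0.18, shares of 28.6% and 7.14%. From 20 to 28 Mb, 7 were tested, 1 was called down and 3 up, with a median of 0.23, shares of 14.3% and 42.9%. Many of these genes lie within or next to protein-coding members, and the reads of the pairs were not separated here. The 7 genes left out by the rule had a median of -0.98, with 2 called down (28.6%), beside the 22.0% of all genes tested.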
